A study of Mus musculus with 10 samples.

Results

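Colons that the labels call severely inflamed were compared with colons called moderately inflamed, 3 against 3, out of 10 colons measured in all. The members are the 6 colons whose titles carry those words, and every one of the 18193 genes with a probe set annotated to 1 gene was compared. All 10 animals were Rag1-/- mice on the C57BL/6 background, 4 to 5 months old, whose deletion leaves them without T or B cells of their own. Severe and moderate mice alike were injected with naïve T cells when 10 weeks old, whereas the 4 controls were given regulatory T cells (Treg). Distal colon was taken 2 to 3 months after injection, and each array held the RNA of 1 mouse. The labels give no score behind the words severe and moderate, so the size of the step in inflammation between the groups is not known here.

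Naïve T cells moved into a host without lymphocytes expand in the gut, respond to the microbiota and bring on a colitis in which T cells, macrophages and neutrophils enter the mucosa. The epithelium of such a colon is known to lose absorptive functions, to elongate its crypts and to make antimicrobial and repair proteins. Regulatory T cells given in their place do not cause disease, which is why Treg-injected mice serve as controls.

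Values are log2 expression values made with RMA (robust multi-array average), so a difference of 1 is a doubling, and differences are given as severe minus moderate with the standard error (SE) of limma. Both groups carried the signs of inflammation that their labels name. The mean of 15 pan-leukocyte genes was 8.76, 7.65 and 8.21 in severe replicates 1 to 3 and 8.52, 7.59 and 7.64 in moderate replicates 1 to 3, against 5.77 to 5.82 in the controls. The mean of 25 pan-epithelial genes stayed between 11.54 and 11.75 on all 10 arrays. Pearson's r across genes was 0.9887 to 0.9939 for pairs of severe arrays, 0.9891 to 0.9922 for pairs of moderate arrays and 0.9874 to 0.9957 for a severe with a moderate array. The pair with the highest r among the 6 was severe replicate 2 with moderate replicate 2, so the arrays did not sort by label over the whole transcriptome. Severe replicate 1 stood apart by its neutrophil, macrophage and stromal genes. The 3′ to 5′ difference of the actin control probe sets, a sign of RNA integrity, was 0.80 to 0.84 in severe and 0.68 to 1.02 in moderate arrays. Moderate replicate 1 had the largest difference of all 10 arrays, for actin (1.02) and for Gapdh (0.495). The part of RNA integrity in results that rest on this array was not tested.

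No gene passed an adjusted p of 0.05 between severe and moderate colons (limma, 3 groups in 1 fit, Benjamini-Hochberg over 18193 genes, 0% called). The smallest adjusted p was 0.233. At an unadjusted p under 0.05 there were 922 genes, 397 higher and 525 lower in severe colons, which is 5.07% of all genes, and the methods' t-test gave 643 at that level and 0 after adjustment. The 3 severe values lay wholly above the 3 moderate values for 694 genes (3.81%) and wholly below for 761 (4.18%). These shares are the background against which every count of members without overlap below is read. On the mean, 48.6% of all genes were higher in severe colons. The median difference over all genes was -0.005, the median SE was 0.12, and the median 95% interval reached 0.26 to either side, or 1.2-fold. Among all genes 43 were at least 2-fold higher in severe colons and 42 at least 2-fold lower, and 18 and 16 of these had no overlap.

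**Figure D1:**
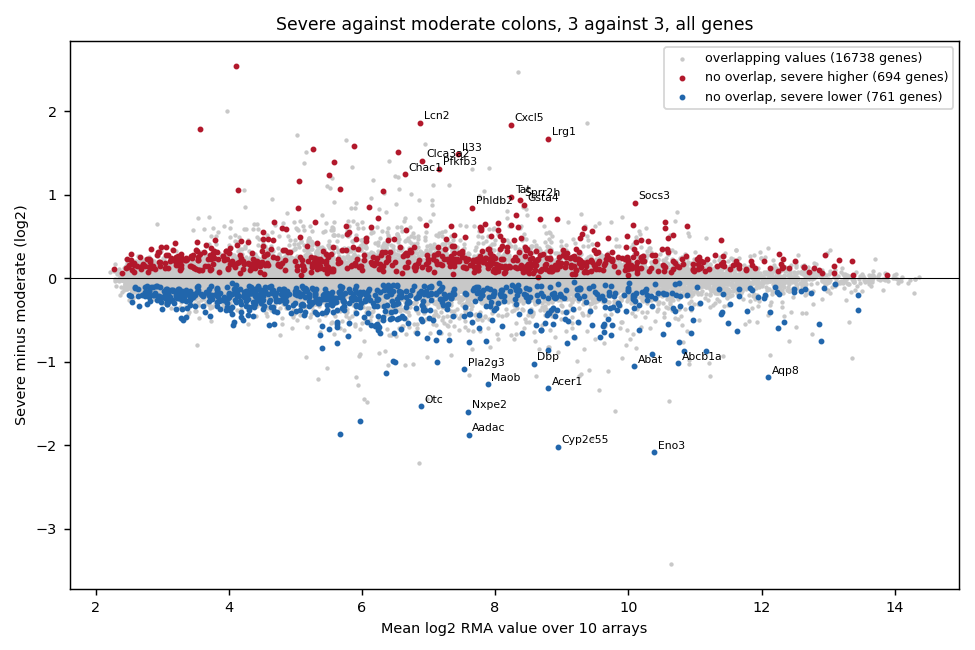
Severe minus moderate difference (log2, y axis) of each of 18193 genes against its mean log2 value over 10 arrays (x axis). Red and blue points are the 694 and 761 genes whose 3 severe and 3 moderate values did not overlap, and the named genes are the 12 largest differences in each direction among those at or above the median level.

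Single arrays weighed on these counts. With moderate replicate 2 left out, 20 genes passed the adjusted threshold, with severe replicate 2 left out 5 passed, with moderate replicate 1 left out 1 passed, and with any other array left out none did. The 5 without severe replicate 2 were Cers3, Eno3, Apob, Trpm6 and Slco2a1, and the 1 without moderate replicate 1 was Cyp2c55. Among the 20 without moderate replicate 2 were Cxcl1 and Cxcl2, chemokines that attract neutrophils, and Plat, the tissue plasminogen activator. Cxcl2 was 10.65, 9.23 and 10.09 in severe and 7.63, 9.81 and 7.71 in moderate colons, against 3.40 to 3.87 in controls, and differed by 1.61 (SE 0.52). Moderate replicate 2 lay above severe replicate 2 for this gene, while the other 2 moderate values were the lowest of the 6. Apob, an apolipoprotein of lipoprotein particles, was 8.45, 10.35 and 8.41 in severe and 10.02, 9.78 and 9.82 in moderate colons, so that severe replicate 2 alone stood at or above the moderate colons. These genes were singled out after their values were seen.

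Among genes without overlap and at or above the median level, the 12 largest differences upward included Lcn2, Cxcl5, Lrg1, Il33 and Socs3. Lcn2, which encodes lipocalin 2 and binds bacterial iron carriers, was 9.98, 8.06 and 8.77 in severe replicates 1 to 3 and 6.46, 7.81 and 6.95 in moderate replicates 1 to 3, with controls at 4.87 to 5.36. Every severe colon lay above every moderate colon, by 1.86 on the mean (SE 0.44, 3.64-fold, limma adjusted p = 0.707). Cxcl5, a chemokine that attracts neutrophils and is made by epithelium, was 12.39, 11.30 and 11.75 in severe and 8.74, 10.60 and 10.58 in moderate colons, a difference of 1.84 (SE 0.47). Controls were at 3.80 to 4.82, so the moderate colons already stood far above them. Lrg1, a secreted glycoprotein of the acute phase, was 12.11, 11.86 and 11.93 in severe and 8.64, 11.73 and 10.51 in moderate colons and differed by 1.67 (SE 0.60). The severe values were close together, while moderate replicate 1 lay far below the others, and without that array the difference was 0.85. Lbp, the binding protein for bacterial lipopolysaccharide, was 7.96, 7.84 and 7.08 in severe and 5.57, 6.48 and 6.30 in moderate colons, with controls at 5.96 to 6.23. The moderate colons lay on both sides of the control range, and every severe colon lay above it. Lbp differed by 1.51 (SE 0.26, limma adjusted p = 0.347), or 0.85 when the gene's probe sets were averaged.

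Il33, an alarmin of the interleukin-1 family held in the nuclei of barrier and stromal cells, was 9.04, 7.49 and 8.68 in severe and 5.99, 7.42 and 7.35 in moderate colons, with controls at 6.78 to 7.39. It differed by 1.49 (SE 0.42), with severe replicate 2 only just above the highest moderate value. Socs3, the feedback inhibitor of signaling by the interleukin-6 family, was 12.18, 12.26 and 12.06 in severe and 10.53, 11.84 and 11.42 in moderate colons and differed by 0.90 (SE 0.50). Its other probe sets gave 0.83 and 0.996, and the array of moderate replicate 1 weighed on it as well, since the difference without that array was 0.53. Sprr2h, a small proline-rich protein of cornified and injured epithelia, was 11.84, 11.07 and 11.19 in severe and 10.31, 10.76 and 10.22 in moderate colons, against 3.67 to 4.99 in controls. Moderate colons thus carried most of the distance from control, and the step to severe was 0.94 (SE 0.33). Pfkfb3, an enzyme that speeds glycolysis, and Chac1, which degrades glutathione, differed by 1.31 and 1.25 and are described with their pathways. Clca3a2, a chloride channel accessory protein, differed by 1.41 (SE 0.33), Tat, tyrosine aminotransferase, by 0.98, Gsta4, a glutathione transferase, by 0.88, and Phldb2, a protein of the cell cortex, by 0.85. Without moderate replicate 1 the differences of Cxcl5, Tat and Gsta4 were 1.22, 0.47 and 0.41.

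The 12 largest differences downward by the same rule on overlap and level began with Eno3, Cyp2c55 and Aadac. Eno3, an enolase of glycolysis best known from muscle, was 7.62, 9.10 and 8.41 in severe and 10.64, 10.15 and 10.58 in moderate colons, with controls at 11.28 to 12.31. It was lower by 2.08 in severe colons (SE 0.34, 4.23-fold, adjusted p = 0.328). Cyp2c55, a cytochrome P450 of the colon, was 4.60, 5.08 and 4.97 in severe and 5.73, 6.99 and 7.97 in moderate colons, against 13.16 to 13.70 in controls, and lower by 2.01 (SE 0.43). The moderate colons were spread over more than 2 units while the severe colons lay within 0.5 of each other, near the lower quartile of all genes on these arrays (4.51 to 4.61). Aadac, an arylacetamide deacetylase, was 4.29, 5.51 and 4.84 in severe and 6.40, 6.43 and 7.43 in moderate colons, lower by 1.87 (SE 0.34). Aqp8, the water channel of surface colonocytes, was 10.10, 11.56 and 11.43 in severe and 11.94, 12.51 and 12.19 in moderate colons, with controls at 12.63 to 12.97. It was lower by 1.18 (SE 0.32), with severe replicate 1 the lowest, and the difference was -0.72 without that array. Abcb1a, a multidrug efflux pump, was 8.63, 9.34 and 9.45 in severe and 9.90, 10.38 and 10.19 in moderate colons, lower by 1.02 (SE 0.19, adjusted p = 0.381). A second probe set of this gene was lower by 0.86.

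The other genes of this group were Nxpe2, lower by 1.60, Otc, an enzyme of the urea cycle, by 1.53, Acer1, a ceramidase, by 1.31, Maob, a monoamine oxidase, by 1.27, Pla2g3, a secreted phospholipase, by 1.09, Abat, which breaks down the transmitter GABA, by 1.05 and Dbp of the circadian clock by 1.02. Their SEs ran from 0.26 to 0.47 and their adjusted p (limma) from 0.707 to 0.909. With probe sets averaged, Nxpe2, Otc and Abat differed by -0.91, -0.77 and -0.52, and without severe replicate 1 Acer1 differed by -0.59. For all 12 genes that were lower the moderate mean lay between the control and the severe mean, and for 9 of the 12 that were higher it did as well. The exceptions were Il33, Gsta4 and Phldb2, whose moderate means lay below those of the controls. Phldb2, for example, was 8.25, 7.503 and 7.85 in severe and 6.94, 6.95 and 7.17 in moderate colons, with controls at 7.82 to 8.11, so the severe values were the ones near control.

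**Figure D2:**
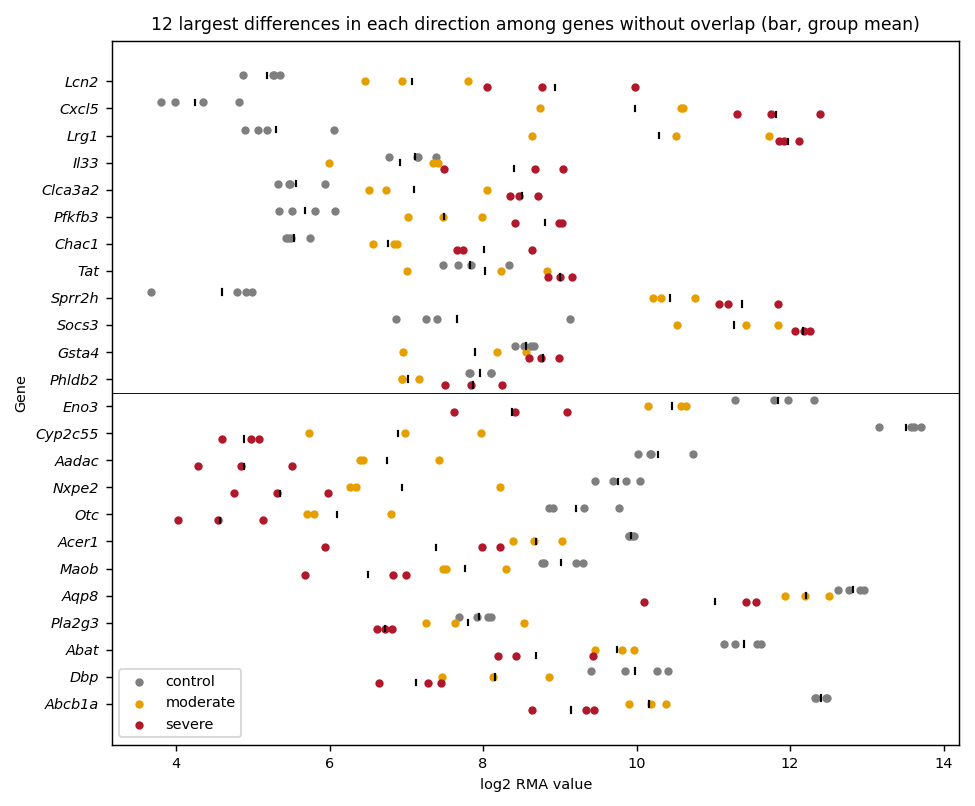
log2 RMA value (x axis) of the 12 largest differences upward (above the line) and downward (below the line) among genes without overlap, for control (grey, 4), moderate (orange, 3) and severe (red, 3) colons, with group means as bars. The moderate colons lie between control and severe for most genes, as for Cyp2c55 at 5.73 to 7.97, between 13.16 and 5.08.

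The smallest adjusted p belonged to Msln, Myb and S100g, all at 0.233. Msln encodes mesothelin, a surface protein of the mesothelium. It was 5.16, 5.12 and 5.18 in severe and 4.48, 4.36 and 4.62 in moderate colons, with controls at 4.34 to 4.63, and differed by 0.67 (SE 0.10, 95% interval 0.45 to 0.89). Moderate colons were at the level of controls, and all these values are low on the arrays' scale. Myb, a transcription factor of crypt progenitors and blood cells, was 10.13, 10.06 and 9.96 in severe and 10.65, 10.53 and 10.59 in moderate colons, below 10.97 to 11.06 in controls. It was lower by 0.54 (SE 0.08) with its brightest probe set and by 0.47 and 0.39 with the others. S100g, the calcium carrier calbindin-D9k, was 4.48, 4.67 and 3.74 in severe and 5.90, 6.29 and 6.28 in moderate colons, lower by 1.86 (SE 0.28). Moderate colons again lay near the controls, at 6.01 to 6.96. Of all genes without overlap the largest difference was that of Cers3, a ceramide synthase of the skin barrier, named with S100g after its values were seen. It was 6.19, 5.44 and 7.17 in severe and 3.18, 4.42 and 3.56 in moderate colons, with controls at 2.57 to 3.09, and differed by 2.55 (SE 0.40, 5.84-fold, adjusted p = 0.286).

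Gene lists written from general knowledge, but chosen with earlier results of these data known, place these genes among their pathways. The shares of their members without overlap therefore describe these data and are no independent support. Of 53 lists, those with the highest median difference were neutrophils (0.58), matrix proteases and inhibitors (0.46) and macrophages and monocytes (0.45), and those with the lowest were smooth muscle (-0.36), stem cells and Wnt targets (-0.23) and colonocytes (-0.22), beside a median of -0.005 over all genes. No member of any list passed the adjusted threshold. The lists with the largest share of members without overlap were different ones, glycolysis and hypoxia (29.6% higher), circadian clock (27.8% lower) and the ATF4 response (27.3% higher), against 3.81% and 4.18% of all genes.

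**Figure D3:**
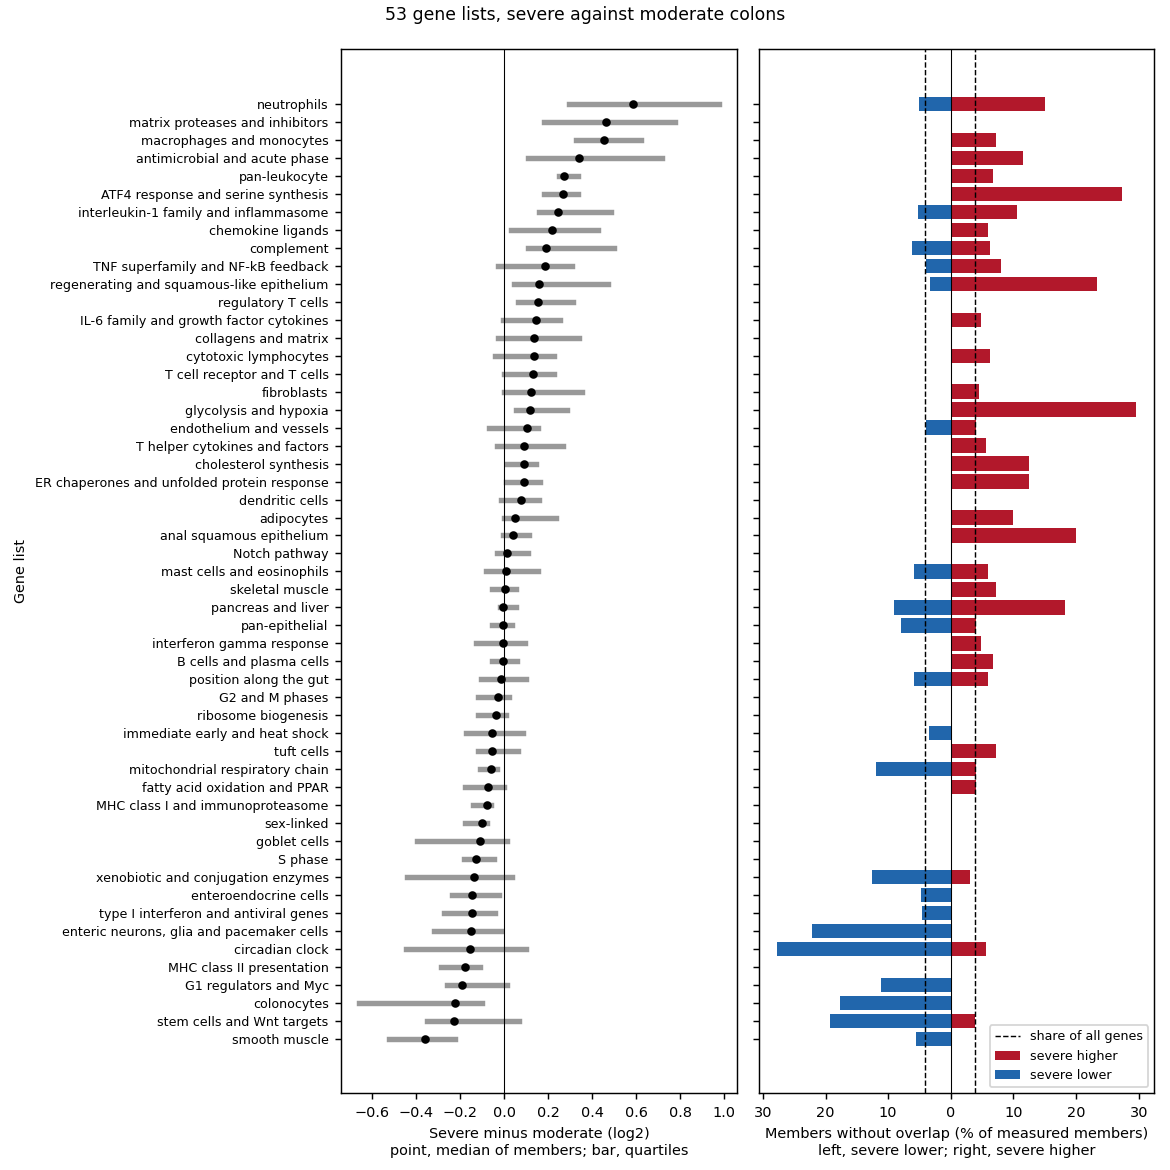
Left, median severe minus moderate difference (log2, points) and quartiles (bars) of each of 53 gene lists; right, members without overlap between the 3 severe and 3 moderate values as a percentage of measured members, with dashed lines at the shares of all genes, 3.81% higher and 4.18% lower. Lists of neutrophils, proteases and macrophages have the highest medians, while glycolysis, the ATF4 response and the clock have the longest bars on the right.

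Transcripts of innate immune cells were higher on the mean in severe colons, and this rested largely on severe replicate 1. Of 20 neutrophil genes 19 were higher, 3 of them without overlap, and 1 was lower without overlap. The mean of the list was 8.45, 7.12 and 7.47 in severe and 6.81, 7.36 and 6.57 in moderate colons, against 4.76 to 5.04 in controls. Moderate replicate 2 lay within the severe range and severe replicate 1 more than 0.9 above every other colon, and without that array the median difference was 0.19. In whole tissue, fewer cells of a type and less RNA per cell cannot be told apart. The members without overlap were Lcn2, Il1r2, the decoy receptor of interleukin-1, and Cxcr2, the neutrophil chemokine receptor, while Elane, the elastase of immature neutrophils, was lower by 0.30. Elane was 4.57 to 5.33 in the 6 colons, around the control values of 4.93 to 5.25. Il1r2 was 8.52, 7.18 and 7.41 in severe and 6.70, 7.01 and 6.27 in moderate colons, a difference of 1.04 (SE 0.34) that was 0.64 without severe replicate 1, and Cxcr2 differed by 0.60 (SE 0.18).

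All 28 measured genes of macrophages and monocytes were higher on the mean. Only Mrc1 and Nos2 had no overlap (7.14%, against 3.81% of all genes). The list mean was 9.51, 8.17 and 8.54 in severe and 8.53, 8.06 and 8.21 in moderate colons. Severe replicate 1 alone exceeded the moderate range by more than 0.1, and without it 22 members were higher and the median difference went from 0.45 to 0.06. Mrc1, the mannose receptor of resident macrophages, shows this, at 8.73, 7.13 and 7.32 in severe and 7.13, 7.08 and 7.12 in moderate colons. Its difference of 0.62 was 0.12 without severe replicate 1. Nos2, the inducible nitric oxide synthase, was more even, at 6.64, 6.54 and 6.75 in severe, 6.33, 6.11 and 5.83 in moderate and 4.60 to 5.12 in control colons, a difference of 0.55 (SE 0.16). All 15 pan-leukocyte genes were higher as well, 1 of them without overlap (Cd37, by 0.15), with a median of 0.27 that was 0.02 without severe replicate 1. Cd37 was 4.57 to 4.85 in the 6 colons, near the arrays' lower quartile, and its other probe set differed by 0.08 with overlap.

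Lymphocyte and interferon genes mostly overlapped between the groups. Of 19 T cell genes 14 were higher and none had severe and moderate values without overlap, and their median of 0.13 was -0.04 without severe replicate 1. Among 16 genes of cytotoxic lymphocytes, Eomes, a transcription factor of those cells, had no overlap, at a difference of 0.27. It was 4.51 to 4.97 in the 6 colons, near the arrays' lower quartile, and its other probe set differed by 0.11 with overlap. The list of the response to interferon gamma had a median of -0.01, with 10 of 21 genes higher and only Nos2 without overlap. Its mean was 10.56, 10.17 and 10.11 in severe and 10.92, 9.62 and 10.15 in moderate colons, so that the highest and the lowest of the 6 were both moderate. All 12 genes of MHC class I and the immunoproteasome were slightly lower in severe colons (median -0.08), none without overlap, and the median was 0.02 without moderate replicate 1. Of 22 antiviral genes 19 were lower, Mx2 without overlap, and that median of -0.15 also turned, to 0.15, without moderate replicate 1. Of 10 genes of MHC class II 8 were lower with no member free of overlap, and that median went from -0.18 to 0.11. Dendritic cell and regulatory T cell lists had medians of 0.07 and 0.16 and no member free of overlap. B and plasma cell genes, of cells that these hosts lack, had a median of -0.01 and list means of 4.80 to 5.02 on all arrays.

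**Figure D4:**
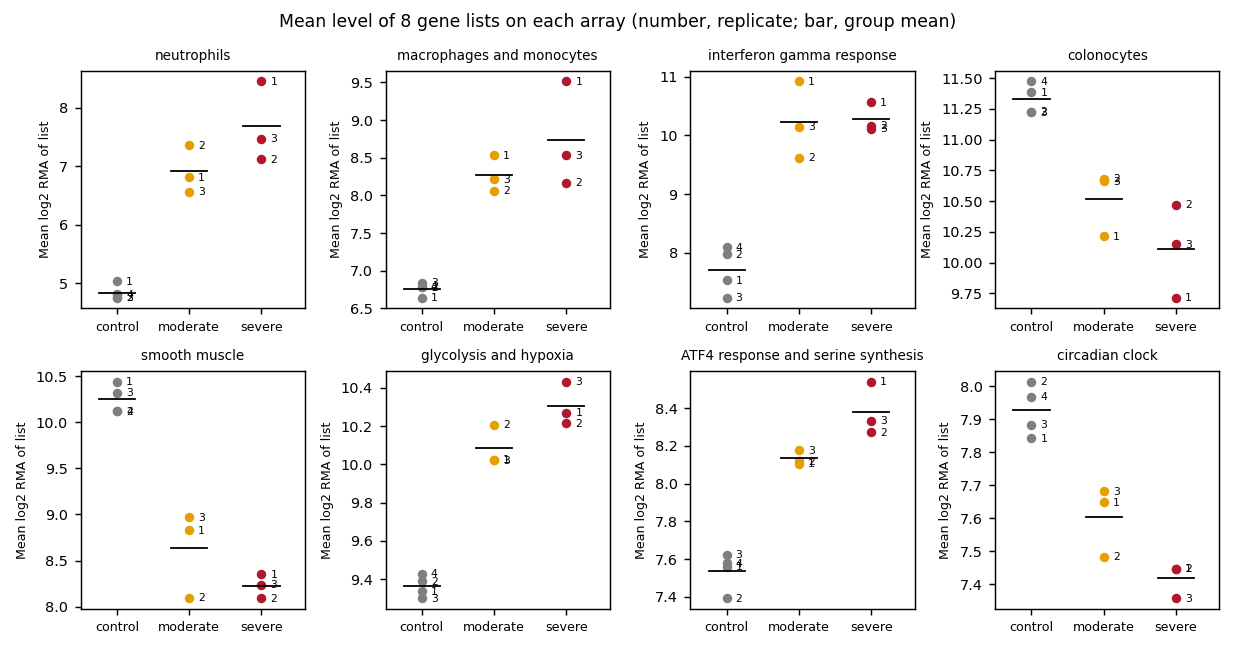
Mean log2 RMA value (y axis) of 8 gene lists on each array, by group (x axis), with the replicate number beside each point and the group mean as a bar. Severe replicate 1 is the highest for neutrophils (8.45) and macrophages (9.51) and the lowest for colonocytes (9.72). The severe and moderate arrays do not overlap for glycolysis, the ATF4 response and the clock. The gap is narrow at replicate 2 of both groups, for glycolysis (severe 10.215, moderate 10.207) and the clock (severe 7.448, moderate 7.484).

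Of the cytokines chosen whatever their difference, Il17a alone had groups without overlap. Ifng, the type 1 cytokine that activates macrophages, was 8.27, 7.15 and 7.70 in severe and 7.54, 6.84 and 7.37 in moderate colons, against 3.56 to 3.83 in controls, and differed by 0.46 (95% interval -0.10 to 1.01), or 0.18 without severe replicate 1. Il17a, the cytokine of Th17 cells, was 5.15, 4.85 and 5.29 in severe and 4.53, 4.82 and 4.57 in moderate colons, with controls at 4.24 to 4.42, and differed by 0.46 (SE 0.12, adjusted p = 0.799). These values are near the arrays' lower quartile, and severe replicate 2 exceeded moderate replicate 2 by only 0.03. Tnf differed by 0.29 (95% interval -0.16 to 0.75) and Il1b by 0.51 (-0.56 to 1.57). The difference of Il1b was 0.02 without severe replicate 1 and 1.08 without moderate replicate 2. Il6 was 6.995, 4.31 and 4.08 in severe and 3.70, 7.14 and 4.57 in moderate colons, with 1 high colon in each group and an interval for the difference of -1.90 to 1.89. Il10, Csf2, Csf3 and Osm differed by 0.19, -0.03, 0.19 and 0.25, the last -0.04 without severe replicate 1, and Il12b and Il23a, the subunits of interleukins 12 and 23, by -0.02 and 0.01 at levels of 3.92 or less in all 6 colons. Of 18 T helper genes Il17a alone had no overlap.

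Of 34 chemokine ligands 27 were higher on the mean, and Cxcl5 and Pf4 had no overlap (5.88%, against 3.81% of all genes). Pf4, a chemokine of platelets and macrophages, was 9.21, 8.15 and 8.50 in severe and 8.02, 7.98 and 7.94 in moderate colons, a difference of 0.64 with controls at 7.93 to 8.53, and of 0.35 without severe replicate 1. Cxcl9, Cxcl10 and Cxcl11, the interferon-induced ligands that attract activated T cells, differed by -0.09, 0.20 and 0.22. Cxcl9 was 12.28, 11.27 and 11.41 in severe and 12.57, 11.04 and 11.62 in moderate colons, with moderate replicate 1 the highest, and the 95% interval of its difference was -1.05 to 0.88. These 3 genes changed sign when single arrays were left out. Ccl9, which attracts myeloid cells, differed by 0.28 (95% interval -0.25 to 0.80), or 0.05 without severe replicate 1. The median of the list was 0.22, and 0.03 without severe replicate 1.

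Of 25 genes of the TNF superfamily and NF-kB feedback 18 were higher. Without overlap, 8.0% were higher and 4.0% lower, against 3.81% and 4.18% of all genes. Tnfrsf1b, a TNF receptor, was higher without overlap by 0.71 (SE 0.20), as was Fas, a death receptor, by 0.24, while Tnfsf13b, the survival factor BAFF, was lower by 0.57 (SE 0.19, or 0.33 with probe sets averaged). Tnfrsf1b was 10.51, 10.16 and 10.45 in severe and 9.77, 10.01 and 9.20 in moderate colons. Of 26 antimicrobial and acute phase genes 23 were higher, with Lcn2, Lbp and Nos2 without overlap and a median of 0.34. Of 16 complement genes 14 were higher, Cr1l without overlap by 0.12, and the inhibitor Cd59a was lower by 0.18, differences of 0.01 and -0.09 with probe sets averaged. Pycard, the adaptor of inflammasomes, was lower by 0.17 without overlap, beside 16 of 19 genes of the interleukin-1 family and inflammasome that were higher.

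In the epithelium, genes of absorptive colonocytes were lower in severe colons. Of 34 measured genes 29 were lower, 6 without overlap (17.6%, against 4.18% of all genes) and none higher without overlap. The list mean was 9.72, 10.47 and 10.15 in severe and 10.22, 10.68 and 10.66 in moderate colons, against 11.22 to 11.47 in controls. Moderate replicate 1 lay within the severe range, and the median of -0.22 was -0.09 without severe replicate 1, still with 6 members lower without overlap against 7.56% of all genes. The 6 were Cyp2c55, Aqp8, Abcb1a and, further, Guca2a, the hormone guanylin, lower by 0.75, Slc9a2, a sodium and proton exchanger, by 0.67, and Scnn1a, a subunit of the epithelial sodium channel, by 0.27. The last 3 were singled out once their values were known. Guca2a was 11.16, 12.28 and 12.12 in severe and 12.35, 12.46 and 12.98 in moderate colons, with controls at 13.53 to 14.21, and its difference was -0.40 without severe replicate 1. Alpi, an alkaline phosphatase of enterocytes, differed by -0.69 with overlap (95% interval -1.76 to 0.37), and Elf3, an epithelial transcription factor, by 0.06. Among 32 enzymes of xenobiotic metabolism 4 were lower without overlap (Cyp2c55, Ugt2b34 by 0.39, Gstt1 by 0.27 and Cyp2b10 by 0.24) and Gsta4 was higher. These were 12.5% and 3.12% of the list, against 4.18% and 3.81% of all genes. With probe sets averaged Cyp2b10 differed by -0.02, and without moderate replicate 3 Gstt1 by -0.07. Of 25 pan-epithelial genes, shared by all epithelial cells, Ocln of tight junctions and Cdx1, an intestinal transcription factor, were lower by 0.16 and 0.18 and Pkp2 of desmosomes higher by 0.15 without overlap, and the median was -0.006.

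Secretory cell genes mostly overlapped between the groups. Atoh1, which steers progenitors toward secretory fates, was 8.05, 8.97 and 8.38 in severe and 8.80, 9.24 and 8.98 in moderate colons, with controls at 9.51 to 9.91. The values overlapped through severe replicate 2, and the difference was -0.54 (SE 0.21, 95% interval -1.01 to -0.07). Differences of Muc2, the main mucin, and Spdef, which matures goblet cells, were -0.09 and 0.09, and that of Chga, of enteroendocrine granules, was -0.24 (95% interval -0.72 to 0.24). None of 23 goblet cell genes had groups without overlap. Of 21 enteroendocrine genes 16 were lower, the hormone gene Sst without overlap by 0.27, and of 14 tuft cell genes Avil, an actin-binding protein, was higher without overlap by 0.32, or 0.13 without severe replicate 3.

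Stem cell and Wnt target genes were lower in 17 of 26, 5 without overlap (19.2%, against 4.18% of all genes). Ascl2, the Wnt-driven transcription factor of crypt base stem cells, was 5.75, 5.97 and 5.54 in severe and 6.48, 6.17 and 6.24 in moderate colons, with controls at 6.22 to 6.75. It was lower by 0.55 (SE 0.15), and its dimmer probe sets were lower by 0.62 and 1.05. Tnfrsf19, a Wnt target, was lower by 0.46, Lgr4, a receptor for R-spondin, by 0.24, Ephb3, which places cells along the crypt, by 0.20, and Rgmb, a BMP co-receptor, by 0.15. Averaged probe sets gave -0.19 for Tnfrsf19 and -0.06 for Lgr4. Tnfrsf19 was 3.40 to 4.16 in the 6 colons, below the arrays' lower quartile. The 95% intervals of Ephb3 (-0.42 to 0.03) and Rgmb (-0.34 to 0.05) included 0. Olfm4, a secreted glycoprotein of human stem cells that neutrophils also make, went the other way. It was 6.29, 3.81 and 4.87 in severe and 2.94, 3.70 and 2.96 in moderate colons, a difference of 1.79 (SE 0.48) that was 1.14 without severe replicate 1, from a control level of 2.58 to 3.07. Lgr5, the receptor that marks cycling stem cells, differed by -0.45 with overlap (95% interval -0.87 to -0.03), and Hopx, Lrig1, Bmi1 and Tert by -0.27, -0.30, 0.13 and 0.11. With probe sets averaged, 3 members were lower without overlap and the median went from -0.23 to -0.12.

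Genes of regenerating and squamous-like epithelium were higher in severe colons in 23 of 30, 7 without overlap (23.3%, against 3.81% of all genes). Besides Sprr2h and Msln these were Krt7, a keratin of simple ducts, by 0.48, Anxa8 and Anxa1, annexins, by 0.46 and 0.28, Krt14, a basal keratin, by 0.29, and Sprr1b by 0.08. The annexins and Sprr1b were singled out once their values were known. Krt7 was 11.30, 11.05 and 11.64 in severe and 10.95, 10.81 and 10.81 in moderate colons, against 9.52 to 10.14 in controls. Sprr1b lay between 2.57 and 2.71 in all 6 colons, at the bottom of the arrays' range. Krt14 was below its control values of 4.69 to 4.83 in every colitic colon, and its difference was 0.03 with probe sets averaged, since another probe set was lower without overlap. Crip1, a small LIM protein, was lower by 0.38 without overlap. The 3 members of the anal squamous list without overlap were Dmkn, Sbsn and Krt14, and the list mean was 4.83, 4.78 and 4.66 in severe, 4.63, 4.64 and 4.63 in moderate and 4.74 to 4.81 in control colons. Dmkn was 6.02, 4.95 and 4.87 in severe and 4.47, 4.44 and 4.39 in moderate colons, with controls at 5.17 to 5.54, above all colitic colons but severe replicate 1, without which its difference was 0.48. The part of tissue from the anal margin in these differences was not tested.

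Genes of glycolysis and of the response to low oxygen differed in the same direction in most members. Of 27 genes 24 were higher in severe colons and 8 had no overlap (29.6%, against 3.81% of all genes). Most differed by little, with a median of 0.12. Eno3, an enolase of glycolysis that is not on this list, was lower without overlap by 2.08. Pfkfb3, which makes the main activator of phosphofructokinase, was 9.03, 8.41 and 8.99 in severe and 7.48, 7.98 and 7.02 in moderate colons, with controls at 5.34 to 6.07. The 3 groups did not overlap, and severe colons were higher by 1.31 (SE 0.26, 2.49-fold, adjusted p = 0.469), or 0.77 when its probe sets were averaged. P4ha2, a collagen prolyl hydroxylase induced by hypoxia, differed by 0.62 (SE 0.15). It was 6.05, 5.86 and 6.34 in severe and 5.30, 5.52 and 5.58 in moderate colons, with controls at 5.555 to 5.995. The moderate mean lay below that of the controls, and severe replicate 2 lay within the control range. Hk2, a hexokinase, differed by 0.29. The others without overlap, singled out with their values known, were Egln3, an oxygen sensor, by 0.28, Slc2a1, the glucose transporter GLUT1, by 0.21, Hif1a, the transcription factor of hypoxia, by 0.13, Pkm, pyruvate kinase, by 0.11, and Pgk1, phosphoglycerate kinase, by 0.07. The list mean was 10.27, 10.215 and 10.43 in severe and 10.02, 10.207 and 10.02 in moderate colons, against 9.30 to 9.43 in controls. Severe replicate 2 thus lay barely above moderate replicate 2. With each array centred on its median 3 of the 27 had no overlap, against 2.94% of all genes, and the median was 0.11.

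Subunits of the mitochondrial respiratory chain were lower in 24 of 25, with a median of -0.06. Cox7a1, a cytochrome oxidase subunit of muscle, was 8.42, 9.30 and 8.85 in severe and 9.44, 9.66 and 9.52 in moderate colons, lower by 0.68 (SE 0.20), and Ndufb8 and Sdhb were each lower by 0.17 without overlap, the former by only 0.00047 with probe sets averaged. Cox5a was higher by 0.03 with values so close together that they did not overlap. Of 25 genes of fatty acid oxidation 18 were lower, and the 1 without overlap, Acadl, was higher by 0.11.

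Genes induced by ATF4, the transcription factor of the amino acid and integrated stress response, were higher in 20 of 22, 6 without overlap (27.3%, against 3.81%) and none lower without overlap. The list mean was 8.54, 8.27 and 8.33 in severe and 8.11, 8.12 and 8.18 in moderate colons, with controls at 7.39 to 7.62, and the groups did not overlap. Chac1, which degrades glutathione, was 8.63, 7.74 and 7.66 in severe and 6.84, 6.88 and 6.56 in moderate colons, with controls at 5.43 to 5.75. It differed by 1.25 (SE 0.22, 95% interval 0.76 to 1.74, adjusted p = 0.36), with moderate colons close together between control and severe. Asns, asparagine synthetase, was 10.33, 10.03 and 9.99 in severe and 9.30, 9.58 and 9.89 in moderate colons, a difference of 0.53 (SE 0.18). Slc6a9, a glycine transporter, differed by 0.39. Singled out with their values known, Atf5, a transcription factor of the same family, differed by 0.32 and Atf4 itself by 0.20. Slc3a2, the heavy chain of amino acid transporters, singled out likewise, differed by 0.29. In severe replicate 2, Slc3a2 was 8.68, within the control range of 8.43 to 8.73. Atf4 was 11.13 in that colon, within the control range of 10.75 to 11.16. Without severe replicate 1 the median of 0.27 was 0.15, with 6 members without overlap against 8.49% of all genes.

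The promoters of Chac1 and Asns are shown because these members had the largest differences among those without overlap in that list and hold the letters TGATGNAA, in capitals, of the element that ATF4 binds with its C/EBP partners. Sequences are from RefSeq, build GRCm38.p6, written along the strand of the gene. The Chac1 stretch is chr2:119351032-119351091, plus strand, from 210 to 151 bases before the start, with the letters on the opposite strand, and the Asns stretch is chr6:7693220-7693309, minus strand, from 100 to 11 bases before the start.
Chac1: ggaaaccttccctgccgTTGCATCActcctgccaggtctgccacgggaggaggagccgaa
Asns: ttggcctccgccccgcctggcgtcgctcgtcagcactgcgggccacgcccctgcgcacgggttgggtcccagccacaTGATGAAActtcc

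Searched on both strands of the window from 250 bases before to 50 after each start, TGATGNAA occurred for 6 of the 20 list members that have a window (Asns, Chac1, Fgf21, Slc7a11, Trib3 and Vldlr), and for 3.24% of 14452 measured genes. Among the 6 members without overlap, 2 held it. A match describes the letters in the window and does not show binding.

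Chaperones of the endoplasmic reticulum were higher in 18 of 24, with Hsp90b1, Pdia6 and Calr without overlap at differences of 0.20, 0.17 and 0.13. Of 16 genes of cholesterol synthesis 12 were higher, Mvd by 0.25 and Srebf2, the factor that controls the pathway, by 0.08 without overlap. In both the chaperone and the cholesterol list 12.5% were higher without overlap, against 3.81% of all genes. Of 29 immediate early and heat shock genes Fosb alone had no overlap, lower by 0.30 at levels near the bottom of the arrays' range.

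Of 18 clock genes 10 were lower and 8 higher in severe colons. Without overlap, 5 were lower (27.8%, against 4.18% of all genes) and 1, Nfil3, was higher. The study's methods give no hour of collection, and the part of time of day in these differences was not tested. Dbp, Tef and Hlf are the PAR bZip activators that bind D-box elements under the control of the clock, and Nfil3 is the repressor of the same elements. Dbp was 6.65, 7.45 and 7.28 in severe and 8.13, 7.46 and 8.86 in moderate colons, with controls at 9.41 to 10.41. Moderate replicate 2 was only 0.01 above the highest severe value, and the difference was -1.02 (SE 0.35, 95% interval -1.81 to -0.24, adjusted p = 0.898), or -0.67 without moderate replicate 3. Hlf was 5.004, 5.11 and 4.61 in severe and 5.59, 5.12 and 5.66 in moderate colons, lower by 0.55 (SE 0.18), and Tef was lower by 0.45 (SE 0.16). For these 3 genes, and for Nr1d2, moderate replicate 2 was the lowest moderate colon and lay 0.01 to 0.12 above the highest severe value. Nfil3 was 7.36, 6.66 and 6.83 in severe and 6.32, 6.55 and 6.64 in moderate colons, with controls at 4.61 to 5.31, higher by 0.45 (SE 0.21), or 0.24 without severe replicate 1.

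Per3, a period protein of the negative limb, was 5.96, 6.16 and 5.85 in severe and 6.51, 6.43 and 7.004 in moderate colons, with controls at 7.31 to 7.84, and lower by 0.66 (SE 0.17). Its 6 probe sets did not agree, the others differing by -0.76 to 0.35. Nr1d2, the nuclear repressor REV-ERB beta, was 10.22, 10.27 and 10.14 in severe and 10.79, 10.39 and 10.96 in moderate colons, lower by 0.50 (SE 0.13). Among members with overlap, singled out with their values known, Per2 differed by -0.43, Nr1d1, the related repressor, by -0.39, Per1 by 0.01, Cry1 by 0.16 and Arntl, the activator BMAL1, by 0.24. The list mean was 7.45, 7.45 and 7.36 in severe and 7.65, 7.48 and 7.68 in moderate colons, against 7.84 to 8.01 in controls. With probe sets averaged 2 members were lower without overlap. With dim genes left out the median of -0.15 was 0.01, over 13 members.

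The Per3 promoter is shown because it holds the D-box letters TTATGNAA, in capitals, at 2 places and because Per3 had the second largest difference of the list. The stretch is chr4:151044796-151044885, minus strand (RefSeq, GRCm38.p6), the strand of the gene from 220 to 131 bases before its start.
Per3: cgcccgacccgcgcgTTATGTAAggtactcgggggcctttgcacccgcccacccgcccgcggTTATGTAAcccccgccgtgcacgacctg

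On both strands TTATGNAA occurred in the windows of 2 of 16 clock members, Per3 and Per1, and for 2.88% of 14452 measured genes. The E-box letters CACGTG, to which the CLOCK and BMAL1 pair binds, occurred for 5 of the 16 (Bhlhe41, Ciart, Cry1, Per1 and Tef) and for 10.2% of measured genes. Of the 6 members without overlap, Per3 held the former and Tef the latter.

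**Figure D5:**
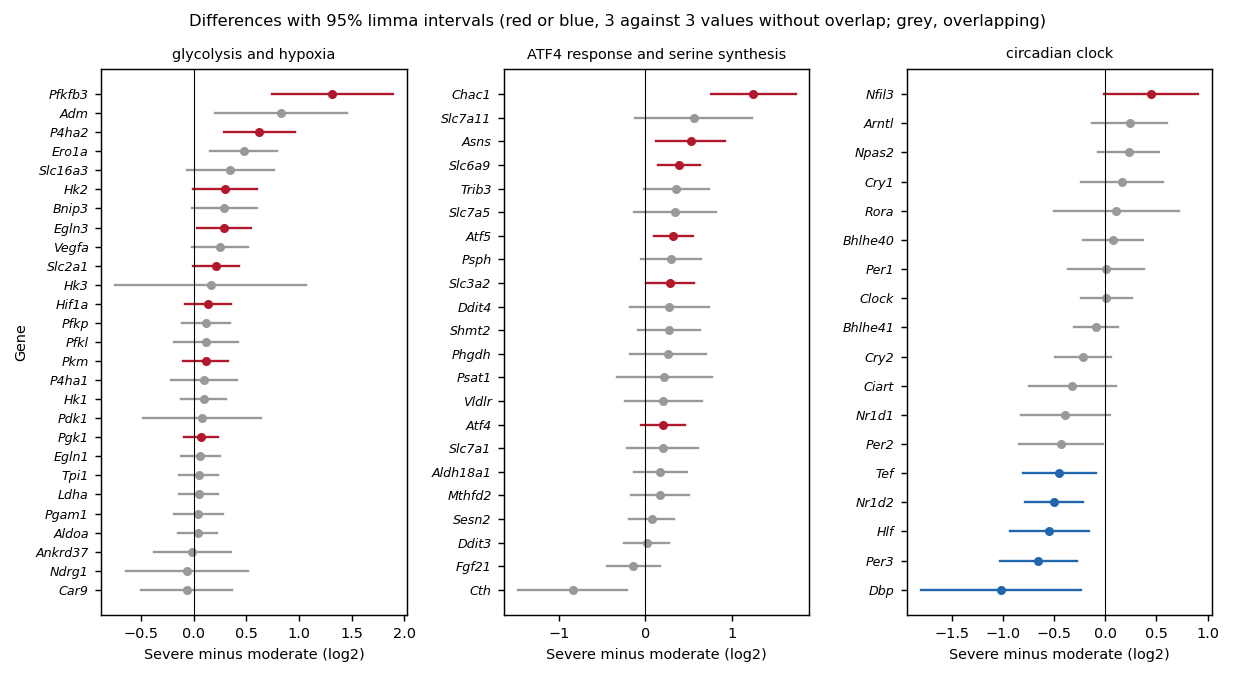
Severe minus moderate difference (log2, x axis) with the 95% limma interval of every measured gene of 3 lists (y axis), in red or blue where the 3 severe and 3 moderate values did not overlap and in grey where they did. Pfkfb3 (1.31) and Chac1 (1.25) lead their lists, and Dbp (-1.02), Per3, Hlf, Nr1d2 and Tef stand below the remaining clock genes.

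Cell division genes were close between the groups. Mki67, which marks cycling cells, was 11.22, 11.03 and 11.08 in severe and 11.22, 10.72 and 11.03 in moderate colons and differed by 0.12 (95% interval -0.26 to 0.50). Of 29 S phase genes 26 were lower, none without overlap, with a median of -0.13 that was -0.01 without moderate replicate 3 and -0.36 without moderate replicate 2. In the list of G2 and M phases, 29 genes, no member was free of overlap (median -0.03). Among 18 G1 regulators, Myb and Cdkn1b, the inhibitor p27, were lower without overlap, the latter by 0.23 or, with probe sets averaged, 0.03. Myb and Cdkn1b were 11.1% of the list, against 4.18% of all genes. No gene of ribosome biogenesis or the Notch pathway had groups without overlap, among 20 and 23 measured.

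In the muscle wall and its nerves, severe colons were lower. Of 18 smooth muscle genes 17 were lower and Tpm2, a tropomyosin, had no overlap. Tpm2 was 11.68, 11.51 and 11.67 in severe and 12.39, 11.77 and 12.25 in moderate colons, with controls at 12.95 to 13.07, lower by 0.52 (SE 0.14). The list mean was 8.35, 8.10 and 8.24 in severe and 8.83, 8.10 and 8.97 in moderate colons, against 10.12 to 10.44 in controls. Moderate replicate 2 was at the bottom of the severe range. The median of -0.36 was -0.65 without that array and -0.22 without moderate replicate 1. With moderate replicate 2 left out 17 of the 18 had no overlap, against 10.2% of all genes. That count follows from leaving out the lowest moderate colon and is no support for the difference. Of 18 genes of enteric neurons, glia and pacemaker cells 14 were lower, 4 without overlap (22.2%, against 4.18%). The median of -0.15 was -0.07 without moderate replicate 1 and -0.27 without moderate replicate 2. Ano1, the chloride channel of the interstitial cells that pace the gut, was 10.20, 10.56 and 9.92 in severe and 10.84, 10.99 and 10.82 in moderate colons, lower by 0.66 (SE 0.16, 95% interval -1.02 to -0.30). Kit, the receptor that marks the same cells and mast cells, was 6.74, 6.95 and 6.76 in severe and 7.69, 7.16 and 7.37 in moderate colons, with controls at 8.32 to 9.001, lower by 0.59. Syt1, a protein of synaptic vesicles, was lower by 0.49. With probe sets averaged the differences of Kit and Syt1 were -0.26 and -0.16. Elavl3, a neuronal RNA-binding protein, was lower by 0.16 with its brightest probe set, and its other probe sets were higher by 0.14 and 0.03. Smooth muscle and nerve lists both lie in the outer wall, and the share of wall in each tissue piece was not tested.

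Stromal genes were highest in severe replicate 1. Of 20 matrix proteases and inhibitors 19 were higher, none without overlap, and 18 were highest in that colon. The list mean was 8.10, 6.63 and 7.14 in severe and 6.56, 7.13 and 6.61 in moderate colons, and the median of 0.46 was 0.02 without it. The medians for collagens (0.14), fibroblasts (0.12) and endothelium (0.11) turned to -0.16, -0.03 and -0.12 without it. Il33 was the only fibroblast gene without overlap, and in endothelium Apln, a peptide of sprouting vessels, was higher by 0.15 and Kdr, the receptor of VEGF, lower by 0.13. Endothelial genes without overlap were 4.0% in each direction, near the 3.81% and 4.18% of all genes. Median differences were small for lists of tissues outside the colon wall, of mast cells and eosinophils and of gut position. Of 11 pancreas and liver genes 2 were higher and 1 lower without overlap (18.2% and 9.09%, against 3.81% and 4.18% of all genes). Each other list of this group had at most 1 such member in either direction. The lists of pancreas and liver, skeletal muscle, adipocytes, mast cells and eosinophils, and position along the gut had medians between -0.01 and 0.05. Their members without overlap were Fgb (0.28), Cpa1 (0.17), Pvalb (0.26), Adipoq (0.46), Prg2 (0.26) and Osr2 (0.10), all at 5.53 or less in the colitic colons, and Kit, Cdx1 and Cela1 (-0.77), an elastase gene that was 9.35, 9.49 and 9.10 in severe, 9.52, 10.35 and 10.39 in moderate and 11.80 to 12.73 in control colons.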

How the data were processed

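RNA from whole distal colon was hybridised to Affymetrix mouse expression arrays, 1 array per mouse. The labels name Trizol and the study's methods a Qiagen kit for extraction. The deposited values are log2 expression values that the authors made with RMA in Affymetrix Expression Console, per the submitters' processing notes, versions not given in the sources used here. RMA subtracts background, forces equal distributions on the arrays and summarises probes, which leaves relative levels only, and the number of arrays limits precision. Of the probe sets, 34945 were annotated to 1 gene, 932 to several, 9160 to none, and 64 were controls. For 9010 genes with more than 1 probe set the brightest on average was used. Groups came from sample titles, and replicate numbers were not used to pair mice. Severe was compared with moderate by limma 3.58.1 (R 4.3.3) with all 10 arrays in 3 groups and Benjamini-Hochberg adjustment over 18193 genes, 95% intervals from the same fit, and the code was tested on simulated data. The methods' t-test on the 6 arrays was an alternative, with others on probe sets, dim genes, scaling, variance model, blocks and left-out arrays. An exact permutation test of 3 against 3 cannot go below 0.1. Values without overlap means that every severe value lay on one side of every moderate value.

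Named were the 12 largest differences in each direction among genes without overlap and at or above the median level, up to 3 members per list and direction without overlap, and a set of cytokine and epithelial genes whatever their difference, of which Il17f and Il22 were not analysed here. The members, gene lists and tests were chosen with earlier results of these data known. Promoter windows matched 14452 of the measured genes by symbol. Figures were drawn with Python 3.11.15 and matplotlib 3.10.9.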

Additional observations from a re-analysis of the deposited data

Results flagged for a closer look

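For each of the 153 named genes the 4 control values were examined for a single array far from the others by Dixon's ratio, and 9 genes had one, where chance marks about 1 group in 20. Control replicate 1 was low for Nos2, at 4.599 against 5.064 to 5.118, for Acadl, at 11.09 against 11.4 to 11.46, and for Pgk1, at 12.39 against 12.49 to 12.5, and high for Il10, at 3.356 against 3.173 to 3.189. Control replicate 2 was low for Sprr2h, at 3.668 against 4.796 to 4.993, for Atoh1, at 9.51 against 9.847 to 9.91, and for Spdef, at 8.083 against 8.636 to 8.744. Control replicate 3 was low for Avil, at 6.184 against 6.604 to 6.649, and for Apln, at 5.619 against 5.923 to 5.966. No control mean enters the difference between severe and moderate colons. The controls enter the spread that the fit shares among groups, and so the SE and p. They also count in the average level that chose each gene's probe set and in the level rule for the largest differences.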

How the results depend on the processing

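No gene passed the adjusted threshold under any alternative that kept all arrays, while single arrays left out gave 0 to 20 genes (20 without moderate replicate 2, 5 without severe replicate 2, 1 without moderate replicate 1). The count at an unadjusted p under 0.05 was 922 and ranged from 759 to 1457 with an array left out. The count without overlap was 1455 and ranged to 3585, since 2 arrays against 3 overlap less easily. Testing all 34945 probe sets gave 1790 and 2962, and leaving out dim genes 476 and 709, counts that follow the number of features tested. With arrays centred on the median there were 783 and 1142, with the 6 arrays alone 616, and with array weights 1046 at an unadjusted p under 0.05. Of the 153 named genes 139 kept their sign in every setting, and so did 27 of the 53 list medians, among them neutrophils, macrophages, colonocytes, smooth muscle, glycolysis and the ATF4 response. Of the 116 named genes without overlap, 41 had a difference smaller by over 1.5 times with some array left out, most often severe replicate 1 (15 genes). List medians were not computed over single probe sets.

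Groups share replicate numbers in the labels. Same-numbered severe and moderate colons had deviations from their group means that correlated at 0.293, 0.254 and -0.0302, which does not establish that the numbers pair the mice. With the replicate block 0 genes passed and 923 had an unadjusted p under 0.05, with a smallest adjusted p of 0.555 (limma).

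The median 95% interval of 0.26 to either side means that most differences below 1.2-fold could not be told from 0 with these arrays.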
